A study of Mus musculus with 8 samples.

Results

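Transcript levels of 5 genes at the start of the Toll-like receptor pathway, Tlr1, Irak3, Myd88, Irak1 and Irak4, were compared between thymocytes labelled as Bcl6 knockout (KO) and wild type (WT), in cells stimulated in culture and in cells taken directly from the thymus. The 5 genes were taken by symbol from deposited tables that list 12133 genes in vitro and 12665 genes in vivo, 13073 in either and 11725 in both, and all 5 were listed in both systems. Tlr1 and Irak3 were chosen by their in vitro fold changes, KO over WT, which were among the largest measured, so their in vitro values, and those of the other members in that comparison, are given as a description with no test.

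RNA sequencing libraries of mouse thymus cells fell into 4 groups of 2 libraries. The groups labelled KO carried Bcl6fl/fl alleles, in which part of the gene is flanked by recombination sites, and the Cd4cre transgene, and the groups labelled WT carried Bcl6fl/fl without Cd4cre. All animals therefore shared the floxed alleles, no group tests Cd4cre by itself, and the transgene acts in every cell that has passed the CD4+CD8+ double-positive stage, not in one lineage alone. In vitro, double-positive thymocytes were sorted, stimulated for 24 h with anti-CD3 and anti-CD28 at 8 μg/ml each, and double-negative cells were sorted from the culture. In vivo, CD4-CD8-CD5+TCRb+ thymocytes, called agonist-p in the labels, were sorted without culture. The labels give no age or sex, and nothing in them ties the replicates to different mice or cultures. The p-values reported here thus reflect the scatter of these libraries alone, which may be technical. BGI Genomics prepared the in vivo libraries and Novogene the in vitro ones, so system and company cannot be told apart, and levels set across systems come from tables normalized separately.

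Toll-like receptors are sensors of microbial products that signal through an intracellular TIR domain. TLR1 pairs with TLR2 to recognise triacylated lipopeptides. Receptors of this family and of the interleukin-1 and interleukin-18 family bind the adaptor MyD88, which assembles the kinases IRAK4 and then IRAK1 (or IRAK2) into a complex that leads through TRAF6 to NF-κB. IRAK3, also called IRAK-M, is a family member without effective kinase activity that is best known in monocytes and macrophages as a brake on this signal.

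The annotation (mm10, GENCODE vM21) places Tlr1 on chromosome 5 at 64924679 to 64933563 and Irak3 on chromosome 10 at 120141648 to 120202130, both on the minus strand. Myd88 lies on chromosome 9 at 119335934 to 119341411 and Irak1 on chromosome X at 74013914 to 74023918, both on the minus strand, and Irak4 lies on chromosome 15 at 94543643 to 94581815 on the plus strand. RefSeq (GRCm38.p6) gives 2 start sites each for Tlr1 and Irak3. The windows below run 5′ to 3′ from 250 bases before to 50 bases after each start and are shown because these 2 genes had the large in vitro differences. Capitals mark matches on either strand to TTCNNNGAA (the core shared by BCL6 and STAT sites), TGANTCA (AP-1) or GAGGAA (PU.1).
Tlr1, chr5:64933509-64933808, minus strand: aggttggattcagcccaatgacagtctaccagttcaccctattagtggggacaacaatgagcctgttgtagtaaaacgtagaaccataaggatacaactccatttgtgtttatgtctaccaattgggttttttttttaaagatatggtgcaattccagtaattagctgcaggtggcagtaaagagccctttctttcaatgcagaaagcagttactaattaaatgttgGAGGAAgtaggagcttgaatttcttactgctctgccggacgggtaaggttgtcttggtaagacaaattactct
Tlr1, chr5:64932650-64932949, minus strand: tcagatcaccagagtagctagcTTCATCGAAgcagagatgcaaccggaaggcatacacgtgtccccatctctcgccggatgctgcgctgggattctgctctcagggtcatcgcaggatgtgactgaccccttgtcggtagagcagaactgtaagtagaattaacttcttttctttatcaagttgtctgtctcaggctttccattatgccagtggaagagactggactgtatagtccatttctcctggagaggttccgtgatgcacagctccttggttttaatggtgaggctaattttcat
Irak3, chr10:120202081-120202380, minus strand: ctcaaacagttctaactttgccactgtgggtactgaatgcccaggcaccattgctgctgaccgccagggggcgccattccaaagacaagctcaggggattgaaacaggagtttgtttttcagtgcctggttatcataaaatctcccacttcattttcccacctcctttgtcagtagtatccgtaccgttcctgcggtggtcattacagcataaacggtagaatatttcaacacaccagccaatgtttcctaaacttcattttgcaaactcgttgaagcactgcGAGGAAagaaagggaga
Irak3, chr10:120201548-120201847, minus strand: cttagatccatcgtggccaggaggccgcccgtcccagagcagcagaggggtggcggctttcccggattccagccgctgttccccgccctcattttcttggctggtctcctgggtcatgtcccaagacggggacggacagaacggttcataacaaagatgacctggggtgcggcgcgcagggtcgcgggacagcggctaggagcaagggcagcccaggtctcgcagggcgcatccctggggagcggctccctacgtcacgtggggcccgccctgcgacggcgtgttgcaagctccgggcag

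The first Tlr1 window held 1 GAGGAA, starting 23 bases before the start site, and the second held 1 TTCNNNGAA, starting 228 bases before it. The first Irak3 window held 1 GAGGAA downstream of the start, and the second held none of the 3 patterns. TGANTCA was in none of these 4 windows. The Myd88 window, not shown, also held 1 TTCNNNGAA, at position -46 from its start site. The windows of Irak1 and Irak4 held none of the 3 patterns. Among all 32851 RefSeq promoter windows, 8.30% held TTCNNNGAA, 7.81% held TGANTCA and 28.3% held GAGGAA, so each pattern is common by its letters alone. The first window of each gene was poorer in G and C than the median window, at 40.3% for Tlr1 and 46.7% for Irak3 against a median of 52.7%. The second Irak3 window was GC-rich, at 67.3%, with 26 CpG dinucleotides. A match is a description of letters and says nothing of binding.

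The libraries held 14754440 to 23975636 counted reads each. Bcl6 itself went against its label in vitro, with 64.6 and 61.0 FPKM (fragments mapped, scaled for transcript length and for library size) in the KO libraries and 24.9 and 21.9 FPKM in the WT libraries. In vivo it stood at 8.81 and 14.4 FPKM under the KO label and 11.5 and 13.9 FPKM under the WT label. Counts over the whole gene do not separate the floxed part from the rest, so Bcl6 does not check the genotype here, and all groups are called by their labels. Every in vitro direction below holds for the labels as given and would turn round if the in vitro labels were exchanged. Defining T cell transcripts were high in all libraries. In vivo, Cd3e stood at 117 and 124 FPKM in KO libraries and 119 and 123 FPKM in WT libraries. Transcripts of the co-receptors that the gates exclude were present. Cd4 stood at 22.8 and 78.4 FPKM in the KO libraries and 26.8 and 55.0 FPKM in the WT libraries in vivo.

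Irak3 was high in both KO libraries in vitro and close to absent from the WT libraries. The brake kinase had 451 and 371 reads in the KO libraries and 16 and 16 reads in the WT libraries, or 6.92 and 4.65 FPKM against 0.181 and 0.266 FPKM. The groups stood far apart and neither WT library reached 1 FPKM, the level required in at least 2 libraries for a gene to be tested. The log2 fold change, KO over WT, was 4.75 (SE 0.28, n = 2 per group), a 26.9-fold difference and the fifth largest rise among the 9658 genes tested in vitro. Irak3 thus passed the filter only through the KO libraries.

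Tlr1 showed the same arrangement at a lower level. It had 73 and 87 reads in the KO libraries and 12 and 6 reads in the WT libraries in vitro, or 1.23 and 1.20 FPKM against 0.149 and 0.110 FPKM. The KO replicates nearly coincided, and both WT libraries rested on few reads. The log2 fold change was 3.20 (SE 0.31, n = 2 per group), a 9.19-fold difference and the eighth largest rise. Next to Tlr1 in that order stood Nanp at 3.32 above it and Itgae, the integrin αE of intraepithelial lymphocytes, at 3.15 below it. A log2 fold change of 3 or more was reached by 0.114% of the genes tested in vitro and by 0.00978% of those tested in vivo. Tlr1 also passed the filter only through the KO libraries, and with a filter on mean FPKM it was not tested, since its mean was 0.672 FPKM.

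The adaptor and the 2 active kinases were expressed in every in vitro library and differed little between labels. Myd88 stood at 12.1 and 12.1 FPKM in the KO libraries and 11.3 and 11.5 FPKM in the WT libraries, with a log2 fold change of 0.11 (SE 0.10). Irak1, the kinase that IRAK4 activates, stood at 27.7 and 27.6 FPKM in the KO libraries and 34.0 and 33.6 FPKM in the WT libraries, with a log2 fold change of -0.26 (SE 0.08). Irak4, which acts upstream of Irak1, stood at 7.53 and 6.77 FPKM in the KO libraries and 5.45 and 6.02 FPKM in the WT libraries, with a log2 fold change of 0.35 (SE 0.10). The KO and WT values did not overlap for any of the 5 genes, but this held for 71.1% of all tested genes in vitro, and KO lay above WT throughout for 32.5%. By edgeR's adjusted p under 0.05, 37.8% of all tested genes were called in vitro, 20.1% higher and 17.7% lower in KO. No call is given for the 5 members there, since that contrast chose Tlr1 and Irak3.

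**Figure D1:**
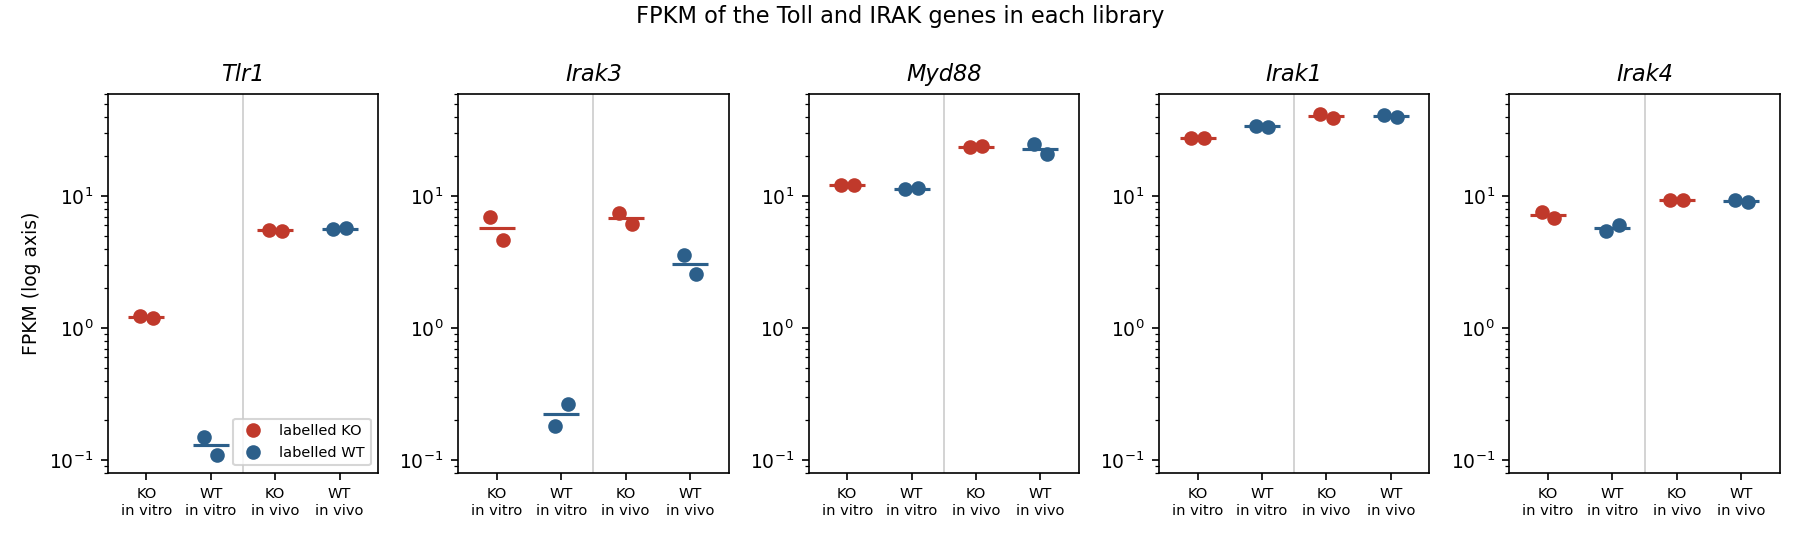
FPKM (log axis) of Tlr1, Irak3, Myd88, Irak1 and Irak4 in each of the 8 libraries, with points for libraries and lines for group means, KO left of WT within each system. The in vitro WT points of Tlr1 and Irak3 lie below 1 FPKM, while Myd88, Irak1 and Irak4 stay above 5 FPKM in all 8 libraries.

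In vivo, the members were present under both labels and none passed the threshold in edgeR's quasi-likelihood test. Of the 5 members, 0 were called, against 1.10% of the 10227 genes tested in vivo, of which 0.284% were higher and 0.821% lower in KO. At an unadjusted p under 0.05 there was 1 member, Irak3, beside 1445 of the 10227 genes. DESeq2 called 1, again Irak3, beside 505 of the 10227 genes. With limma on log2(FPKM + 1), 0 members were called, beside 68 of the 10227 genes.

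Irak3 had the widest gap between labels of the 5 members in vivo, short of the threshold. It had 419 and 362 reads in the KO libraries and 222 and 151 reads in the WT libraries, or 7.46 and 6.15 FPKM against 3.61 and 2.55 FPKM. Both KO libraries lay above both WT libraries, an arrangement shared by 22.0% of the genes tested in vivo. The log2 fold change was 1.14 (SE 0.21, n = 2 per group), a 2.20-fold difference, with an unadjusted p of 0.00136 and an adjusted p of 0.0727 in edgeR's quasi-likelihood test, so it missed the threshold. It passed with DESeq2 (adjusted p = 0.000894), when edgeR was fitted over all 8 libraries (0.0174), and without the second KO library (0.0410). It did not pass without the first KO library (adjusted p = 0.233), the first WT library (0.0545) or the second WT library (0.213). With a block for replicate number, Irak3 also passed (log2 fold change 1.15, adjusted p = 0.000301 in edgeR's test). Over all alternatives run, the log2 fold change stayed between 0.91 and 1.41.

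Tlr1 differed between the labels in vivo by less than its error. It had 284 and 293 reads in the KO libraries and 317 and 307 reads in the WT libraries, or 5.56 and 5.47 FPKM against 5.66 and 5.70 FPKM. Both KO values lay just under both WT values, and groups that do not overlap in either direction were seen for 43.4% of the genes tested in vivo. The log2 fold change was -0.05 (SE 0.13), with an adjusted p of 0.938 in edgeR's test. All 4 in vivo libraries lay above the in vitro KO libraries, which in turn lay above the in vitro WT libraries.

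The adaptor and active kinases overlapped between labels in vivo. Myd88 stood at 23.5 and 23.9 FPKM in the KO libraries and 24.8 and 20.8 FPKM in the WT libraries, with a log2 fold change of 0.05 (SE 0.12, adjusted p = 0.930 in edgeR's test). Irak1 stood at 42.0 and 39.0 FPKM in the KO libraries and 41.6 and 39.7 FPKM in the WT libraries, with a log2 fold change of -0.01 (SE 0.10, adjusted p = 0.984 in edgeR's test). Irak4 stood at 9.31 and 9.35 FPKM in the KO libraries and 9.41 and 9.0 FPKM in the WT libraries, with a log2 fold change of 0.01 (SE 0.10, adjusted p = 0.986 in edgeR's test). By FPKM, which is scaled for transcript length, the order in all 8 libraries was Irak1 above Myd88 above Irak4, with Irak3 and Tlr1 below these 3. In vivo Tlr1 lay below Irak3 in the KO libraries and above it in the WT libraries.

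**Figure D2:**
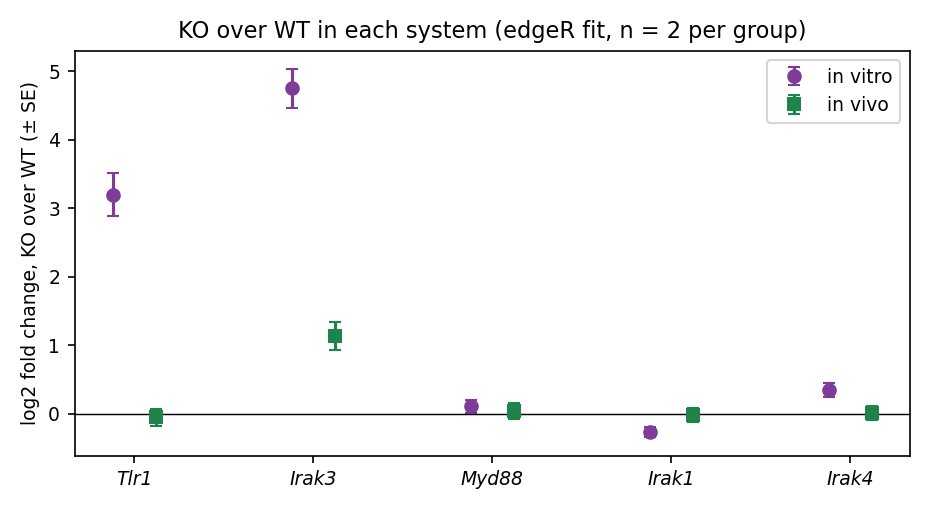
Log2 fold change, KO over WT, of the 5 genes in vitro (circles) and in vivo (squares), with bars of 1 SE from edgeR and 2 libraries per group. Irak3 lies at 4.75 in vitro and 1.14 in vivo, Tlr1 at 3.20 and -0.05, and the other 3 genes lie within 0.35 of 0.

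The sum of the 4 IRAK transcripts differed little within a system while its make-up shifted. The summed FPKM of Irak1, Irak2, Irak3 and Irak4 was 43.9 and 41.1 in the in vitro KO libraries and 41.3 and 41.5 in the in vitro WT libraries. In vivo it was 65.6 and 62.0 in KO libraries and 62.1 and 58.8 in WT libraries. Irak3 made up 15.8% and 11.3% of this sum in the in vitro KO libraries and 0.439% and 0.642% in the in vitro WT libraries. In vivo its share was 11.4% and 9.92% in KO libraries and 5.81% and 4.34% in WT libraries. The share of Irak1 moved the other way in vitro, at 63.2% and 67.1% in KO libraries and 82.4% and 80.9% in WT libraries. Set against Irak4, the first kinase of the complex, Irak3 stood at a ratio of FPKM of 0.918 and 0.687 in the in vitro KO libraries and 0.0333 and 0.0442 in the in vitro WT libraries. In vivo that ratio was 0.802 and 0.658 in the KO libraries and 0.383 and 0.284 in the WT libraries. By their labels, the 4 KO libraries of both systems lay above the 4 WT libraries in this ratio. Irak3 was chosen by its in vitro difference, so the in vitro part of this order follows from that choice. In vitro that direction rests on labels that Bcl6 goes against, and were those labels exchanged, the in vitro ratios would stand at 0.0333 and 0.0442 in KO and 0.918 and 0.687 in WT.

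**Figure D3:**
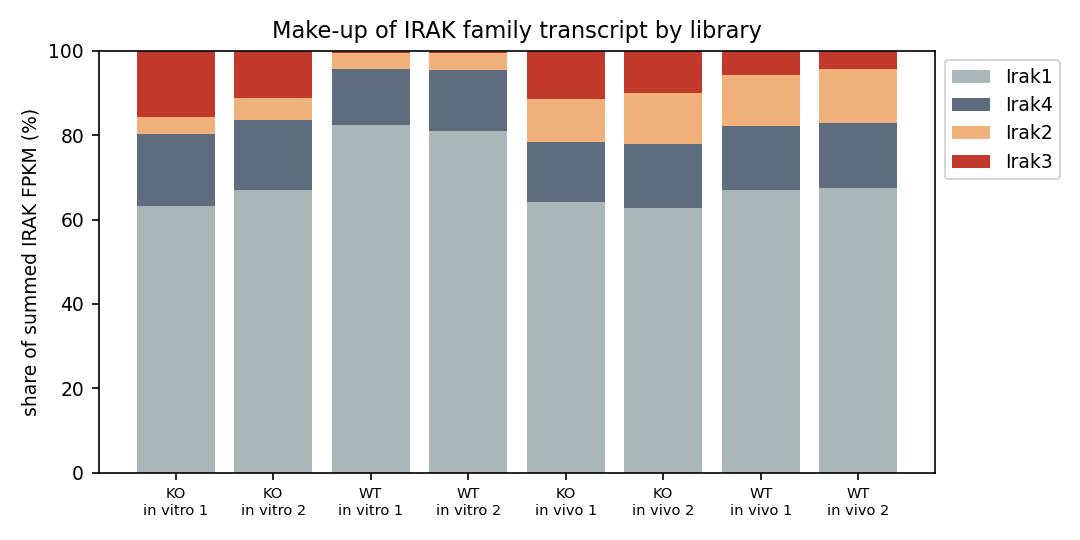
Share of the summed IRAK FPKM (percent) taken by Irak1, Irak4, Irak2 and Irak3 in each library, KO left of WT within each system. The Irak3 share lies between 9.92% and 15.8% in the 4 KO libraries and between 0.439% and 5.81% in the 4 WT libraries. Irak3 was chosen by its in vitro difference.

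Tested markers of myeloid cells, in which Irak3 is best known, had positive log2 fold changes in vivo, KO over WT, though most of their groups overlapped. In vitro only 4 of 16 myeloid markers were listed, and their summed level was 4.68 and 4.73 FPKM in the KO libraries and 4.15 and 4.44 FPKM in the WT libraries. Lyz2, Csf1r, Spi1, Tyrobp, Mpeg1 and Adgre1 were not listed there. The part of other cells in the in vitro Irak3 difference was not tested. In vivo 15 of 16 myeloid markers were listed, and their summed level was 377 and 186 FPKM in the KO libraries and 167 and 88.6 FPKM in the WT libraries. The order of the 4 in vivo libraries was the same for this sum and for Irak3. Genes outside the marker lists could share it, as the chaperone gene Hsp90b1 did, at 101 and 92.9 FPKM in KO libraries and 87.6 and 75.3 FPKM in WT libraries. The share of all genes with this order was not counted. Fcer1g, an Fc receptor signalling chain that some T cells also make, gave much of the sum, with 187 and 146 FPKM in KO libraries and 110 and 64.5 FPKM in WT libraries. Lyz2, the lysozyme of macrophages and neutrophils, was at 109 and 15.7 FPKM in KO libraries and 25.6 and 10.7 FPKM in WT libraries, and Csf1r, the macrophage growth factor receptor, at 7.59 and 0.725 FPKM in KO libraries and 1.73 and 0.646 FPKM in WT libraries. Lyz2 and Csf1r were lower in the second KO library than in the first WT library, while the sum over the 15 markers was higher, at 186 against 167 FPKM, as was Irak3. Of 9 myeloid markers tested in vivo, 0 passed edgeR's threshold and 4 had an unadjusted p under 0.05, beside 1445 of all 10227 genes tested. The median log2 fold change of the 9 was 1.77, beside -0.00 over all tested genes. All 9 had a higher KO than WT level, and for 3 of them the groups did not overlap, beside 43.4% of all genes tested. The part of other cells in the in vivo Irak3 difference was not tested. In bulk RNA, more cells of a type and more RNA per cell cannot be told apart.

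**Figure D4:**
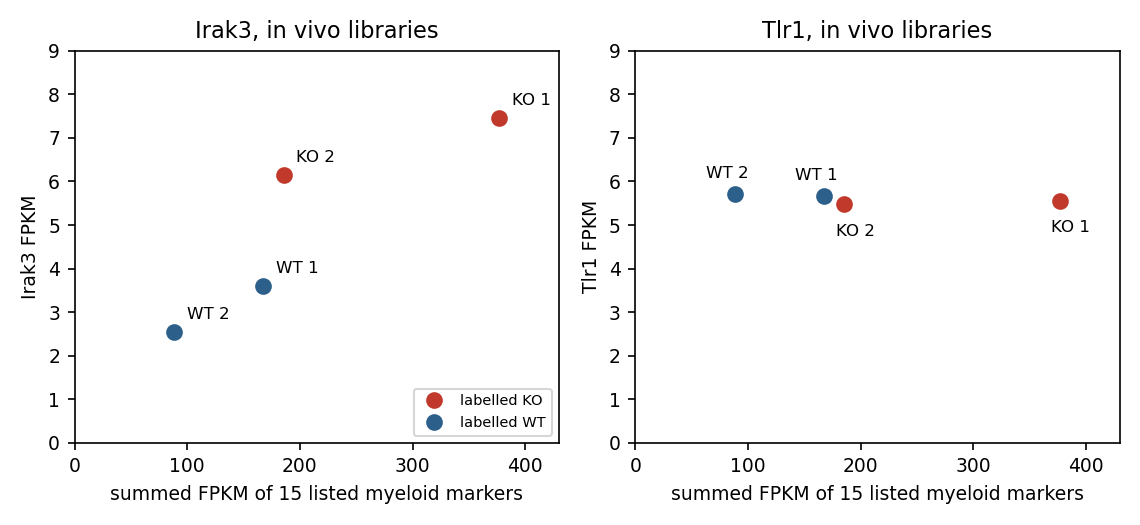
FPKM of Irak3 (left) and Tlr1 (right) against the summed FPKM of 15 listed myeloid markers in the 4 in vivo libraries, KO and WT, numbered by replicate. Irak3 runs from 2.55 to 7.46 FPKM in the order of the marker sum, while Tlr1 stays between 5.47 and 5.70 FPKM.

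Markers of other cells are given for the same libraries. The 8 B cell markers listed in vivo, of 9, summed to 28.2 and 20.8 FPKM in KO libraries and 16.1 and 5.05 FPKM in WT libraries, the same order of libraries as for Irak3. Of 5 tested, 0 passed edgeR's threshold and 3 had an unadjusted p under 0.05, beside 1445 of all 10227 genes tested. All 5 markers had KO above WT without overlap, beside 22.0% of all genes, and their median log2 fold change was 1.21. Of these 5, 1 passed the filter only through the KO libraries. The 7 dendritic cell markers listed in vivo, of 9, summed to 90.9 and 123 FPKM in KO libraries and 89.2 and 88.2 FPKM in WT libraries. In vitro the 5 listed dendritic markers summed to 36.4 and 39.9 FPKM in KO libraries and 24.3 and 24.4 FPKM in WT libraries, and the 2 listed B cell markers to 5.06 and 5.76 FPKM against 2.95 and 2.85 FPKM. Of 3 dendritic markers tested in vitro, only 1 had a positive log2 fold change, and it was called, beside 20.1% of all genes called higher. The median of the 3 was -0.17, and none of their groups overlapped, as for 71.1% of all genes. Of these 3, 1 passed the filter only through the WT libraries. T cell markers, 13 of 16 listed in each system, summed to 1624 and 1950 FPKM in vivo in KO libraries and 1633 and 1584 FPKM in WT libraries. The part of these cells in the results was not tested.

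Around the 5 genes, 78 other genes of the pathway were listed by role. In vitro, 59 were in the tables and 39 could be tested. Of these, 8 rose and 3 fell in KO libraries (28.2%, beside 37.8% of all genes), and their median log2 fold change was 0.09. Of the 8, 4 passed the filter only through the KO libraries and so had to be higher there, and of the 35 genes left without them 4 rose. With a filter on mean FPKM, 6 of 37 tested rose and 3 fell, beside 1897 and 1674 of all 9550 genes. In vivo, 69 were in the tables and 54 could be tested. None rose and 1 fell (1.85%, beside 1.10% of all genes), with a median of -0.03. Of the 54, 7 had an unadjusted p under 0.05, beside 1445 of all 10227 genes. DESeq2 called 3 of the 54, all lower, beside 260 higher and 245 lower among all 10227 genes. The list as a whole was thus not called more often than other genes in vitro.

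Among receptors and coreceptors, 2 of 17 could be tested in vitro and both rose, beside 20.1% of all genes tested. Tlr12, which in mice senses profilin of parasites, stood at 13.7 and 13.6 FPKM in the KO libraries and 3.95 and 4.82 FPKM in the WT libraries, with a log2 fold change of 1.68 (SE 0.12, adjusted p = 2.55e-06 in edgeR's test). Tlr12 was therefore the most abundant of the listed Toll receptors in the in vitro cells, above Tlr1. Tlr9, the sensor of unmethylated CpG DNA, stood at 1.34 and 1.22 FPKM in the KO libraries and 0.599 and 0.774 FPKM in the WT libraries, a log2 fold change of 0.94 (adjusted p = 0.00840 in edgeR's test). Its call was lost without the first WT library (adjusted p = 0.0664) and in a fit over all 8 libraries (0.188), and it passed the filter only through the KO libraries. Tlr2, the partner of TLR1, was not tested in vitro. It stood at 0.879 and 0.963 FPKM in the KO libraries and 0.484 and 0.569 FPKM in the WT libraries. In vivo Tlr2 reached 1 FPKM in 1 library and was also not tested, at 1.30 and 0.684 FPKM in KO libraries and 0.972 and 0.928 FPKM in WT libraries. In vivo 5 receptors and coreceptors were tested, all with positive log2 fold changes and none called or under an unadjusted p of 0.05. Tlr7, the sensor of single-stranded RNA, stood highest of these at 7.86 and 10.1 FPKM in KO libraries and 6.12 and 7.57 FPKM in WT libraries.

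The proteins that fold and carry the receptors did not pass in either system. Hsp90b1, the chaperone gp96 needed by most Toll receptors, stood at 63.9 and 58.9 FPKM in the in vitro KO libraries and 68.7 and 67.0 FPKM in the WT libraries. Unc93b1, which carries the endosomal receptors out of the endoplasmic reticulum, stood at 15.1 and 10.9 FPKM in the in vivo KO libraries and 10.3 and 6.93 FPKM in the WT libraries (log2 fold change 0.58, adjusted p = 0.335 in edgeR's test). Of the 5 TIR adaptors other than MyD88, only Ticam1 (TRIF) could be tested in vitro, at 6.69 and 7.91 FPKM in KO libraries and 6.89 and 7.08 FPKM in WT libraries. Tirap, the bridge from TLR2 and TLR4 to MyD88, was below 1 FPKM in every in vitro library and at 2.46 and 2.0 FPKM in the in vivo KO libraries and 2.74 and 2.58 FPKM in the WT libraries.

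Among 10 kinases tested in vitro, 1 rose and 1 fell, beside 20.1% higher and 17.7% lower over all genes. Ikbke, an IκB kinase relative that acts in interferon induction, rose to 39.3 and 39.7 FPKM in KO libraries, against 23.2 and 25.7 FPKM in WT libraries (log2 fold change 0.72, SE 0.09, adjusted p = 0.000122 in edgeR's test). Ikbkb, the catalytic IKKβ, fell by 0.23 on the log2 scale (adjusted p = 0.0421 in edgeR's test), and this call was lost when any one of the 4 libraries was left out (adjusted p from 0.0800 to 0.221) or all 8 were fitted together (0.0759). The kinase TAK1 (Map3k7) stood at 26.0 and 25 FPKM in KO libraries and 26.4 and 27.9 FPKM in WT libraries. Of 7 ubiquitin enzymes, 1 fell, beside 17.7% of all genes. Traf3, which restrains NF-κB and serves interferon induction, fell by 0.25 (adjusted p = 0.0439 in edgeR's test). It was not called without the first KO library (adjusted p = 0.223), without the first WT library (0.312), with DESeq2 (0.0601) or over all 8 libraries (0.0848).

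Among 7 brakes tested in vitro, 2 rose, beside 20.1% of all genes, both more abundant than Irak3 and with smaller folds. Sigirr, a TIR-domain inhibitor of interleukin-1 family signals, rose to 45.4 and 49 FPKM in KO libraries, against 33.1 and 34.5 FPKM in WT libraries (log2 fold change 0.51, SE 0.08, adjusted p = 0.000686 in edgeR's test). Nlrc3, a NOD-like receptor that dampens signalling in T cells, rose to 22.5 and 23.0 FPKM in KO libraries, against 15 and 17.1 FPKM in WT libraries (log2 fold change 0.53, SE 0.09, adjusted p = 0.000765 in edgeR's test). Tnip1, Tollip, Tnfaip3, Cyld and Otulin did not pass. The median log2 fold change of the 7 was 0.21. In vivo 0 of 8 brakes passed. An unadjusted p under 0.05 was seen for 1445 of all 10227 genes and for 2 of the brakes. One of these, Tnip1 (the A20 partner ABIN-1), stood at 33.1 and 37.1 FPKM in KO libraries and 50 and 59.1 FPKM in WT libraries (log2 fold change -0.64, SE 0.12, adjusted p = 0.0833 in edgeR's test). DESeq2 called it lower (adjusted p = 0.000941).

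Irf7, the interferon regulatory factor of endosomal Toll signals, rose in vitro to 1.96 and 2.04 FPKM in KO libraries, against 0.849 and 0.843 FPKM in WT libraries (log2 fold change 1.26, SE 0.19, adjusted p = 0.000488 in edgeR's test). Irf7 passed the filter only through the KO libraries, so it had to be higher there. In vivo it was far more abundant under both labels, at 45.4 and 43.0 FPKM in KO libraries and 48.0 and 39.6 FPKM in WT libraries. Irf3 did not pass in either system. Il18r1, the ligand-binding chain of the interleukin-18 receptor, which also signals through MyD88, rose in vitro to 1.40 and 1.0 FPKM in KO libraries, against 0.294 and 0.419 FPKM in WT libraries (log2 fold change 1.80, SE 0.27, adjusted p = 0.000443 in edgeR's test). Il18r1 also passed the filter only through the KO libraries, which fixed its direction. In vivo it was abundant under both labels, at 132 and 111 FPKM in KO libraries and 106 and 85.2 FPKM in WT libraries. Il1r1, the interleukin-1 receptor, was the 1 pathway gene that passed in vivo. It fell to 3.81 and 2.02 FPKM in KO libraries, against 18.5 and 11.8 FPKM in WT libraries (log2 fold change -2.39, SE 0.34, adjusted p = 0.0393 in edgeR's test). That call was lost without the first WT library (adjusted p = 0.0704) or the second (0.0802).

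Of the pathway's outputs, 3 of 13 could be tested in vitro and the 2 that passed went opposite ways. Over all genes tested in vitro, 37.8% passed. Nfkbia, the inhibitor IκBα that NF-κB induces, fell to 56.4 and 66.3 FPKM in KO libraries, against 89.0 and 79.7 FPKM in WT libraries (log2 fold change -0.43, SE 0.10, adjusted p = 0.00510 in edgeR's test). Ccl4, a chemokine, rose to 1.45 and 1.75 FPKM in KO libraries, against 0.568 and 0.464 FPKM in WT libraries (log2 fold change 1.63, SE 0.42, adjusted p = 0.0103 in edgeR's test), and it was not called by DESeq2 (0.0990) or over all 8 libraries (0.113). Like Irf7 and Il18r1, Ccl4 passed the filter only through the KO libraries and so had to be higher there. In vivo 0 of 7 outputs passed. Socs3, the STAT feedback inhibitor, stood at 10.2 and 10.2 FPKM in KO libraries and 23.9 and 17.3 FPKM in WT libraries (log2 fold change -1.02, SE 0.17, adjusted p = 0.0588 in edgeR's test), and DESeq2 called it lower (5.63e-05). Socs3 and Tnip1 were picked for the text after their in vivo values were seen.

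**Figure D5:**
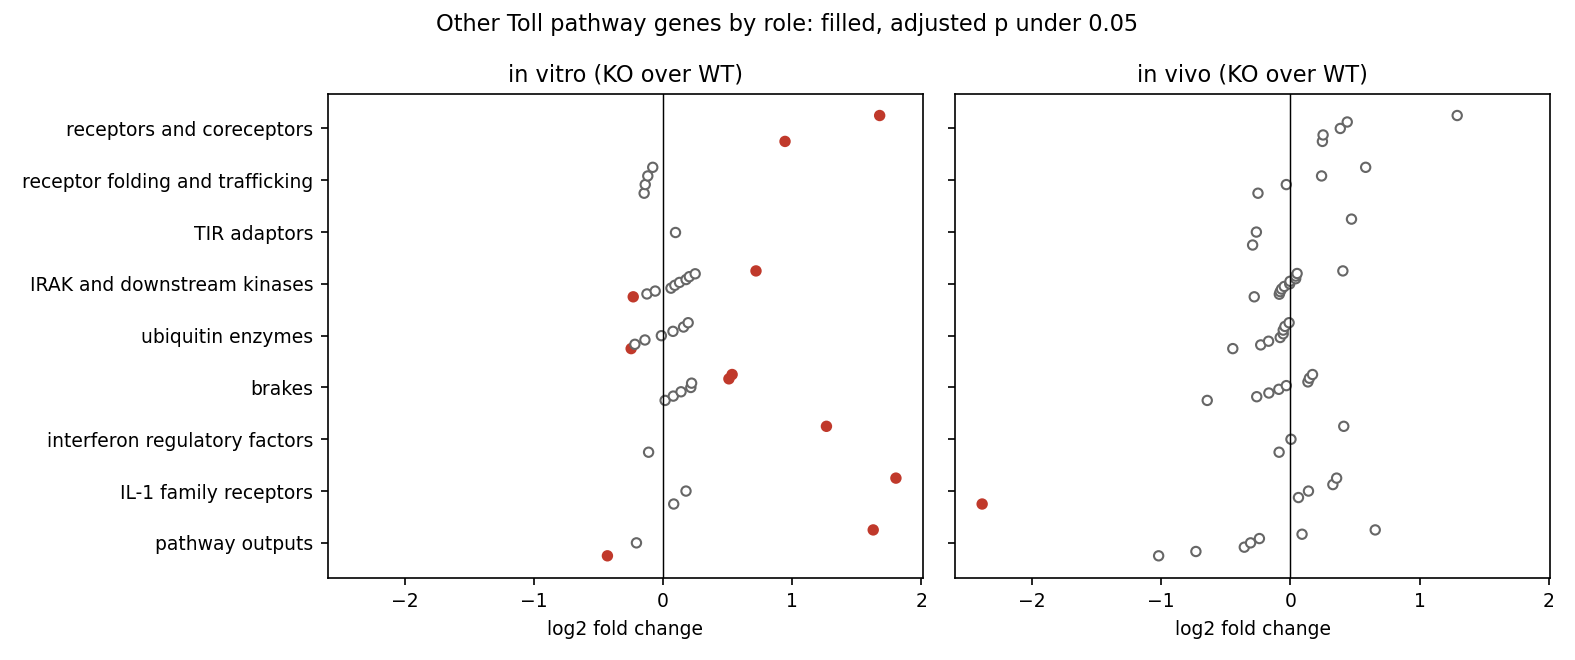
Log2 fold change, KO over WT, of the other pathway genes tested in vitro (39, left) and in vivo (54, right), 1 point per gene in rows by role, filled where the adjusted p was under 0.05. In vitro 8 genes are filled to the right of 0 and 3 to the left, and in vivo 1 gene, Il1r1, is filled at -2.39.

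The KO effect in vivo was set against that in vitro for the 39 list genes tested in both systems, over all 8 libraries. The effect was lower in vivo for 6 of them and higher for 0, while 16.4% of all 9364 genes passed this test in either direction and 9.81% were lower in vivo. The 6 were Tlr12, Irf7, Il18r1, Ikbke, Sigirr and Tnip1. In vitro, Irf7 and Il18r1 passed the filter only through the KO libraries. Their in vitro effect thus had to be positive, which favours a lower effect in vivo. For Tlr12 the difference, in vivo minus in vitro, was -1.39 (SE 0.20, adjusted p = 0.00204 in edgeR's test). The same difference is not given for the members, since the in vitro contrast had chosen Tlr1 and Irak3.

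The Tlr1 neighbourhood held 10 listed genes whose starts lie within 500 kb, of which 6 were tested in vitro. Of these 1 rose and 1 fell, a share near the 37.8% called over all genes. Klf3, a Krüppel-like repressor 130.2 kb away, rose to 5.36 and 4.32 FPKM in KO libraries, against 1.69 and 1.91 FPKM in WT libraries (log2 fold change 1.46, SE 0.12, adjusted p = 9.39e-06 in edgeR's test). Lias, a lipoic acid synthase, fell by 0.24 (adjusted p = 0.0492 in edgeR's test). Tlr6, the paralogue 26.5 kb away that also pairs with TLR2, was not tested in vitro. It stood at 0.938 and 0.717 FPKM in KO libraries and 0.302 and 1.15 FPKM in WT libraries, so its groups overlapped where those of Tlr1 did not. Tlr1 and Tlr6 transcripts share sequence. Of 2926 windows of 100 bases in a Tlr1 transcript, 259 (8.85%) were identical in Tlr6, with a longest shared run of 229 bases, so the division of reads between the pair is uncertain. In vivo 0 of 9 tested neighbours of Tlr1 passed edgeR's threshold.

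The Irak3 neighbourhood held 4 listed genes. In vitro 2 of the 3 tested rose, beside 20.1% of all genes tested. Tmbim4, which starts 0.5 kb away on the other strand, stood at 14.6 and 15.1 FPKM in KO libraries and 11.8 and 11.9 FPKM in WT libraries (log2 fold change 0.36, SE 0.09, adjusted p = 0.0108 in edgeR's test), and Helb, a DNA helicase, had a log2 fold change of 0.39 (adjusted p = 0.00511 in edgeR's test). The Tmbim4 call was lost without the first WT library (adjusted p = 0.0596). The exons of Tmbim4 cover 192 of the 3676 exonic bases of Irak3 (5.22%), and whether counting used the strand is not given in the sources used here. Hmga2, a chromatin protein of stem and progenitor cells, stood at 1.03 and 1.01 FPKM in KO libraries and 0.274 and 0.220 FPKM in WT libraries in vivo. It passed the filter only through the KO libraries and so had to differ. Its log2 fold change was 2.04 (SE 0.24, adjusted p = 0.0336 in edgeR's test), a call lost without the first KO library (0.0819), without the second WT library (0.112) and with limma on log2(FPKM + 1) (0.109). No stretch of 100 bases of Irak3 was shared with Irak1, Irak2 or Irak4. Exons of other genes on the opposite strand covered 11.3% of the exonic bases of Myd88 (Acaa1a) and 7.87% of those of Irak4 (Twf1).

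The genes most like Tlr1 over the 8 libraries, by Pearson correlation of log2(FPKM + 1) among 9364 genes, were Emp3 (0.999), Lfng (0.998), Elf4 (0.998), Zbp1 (0.997) and Baiap3 (0.997). Each was lowest in the in vitro WT libraries, intermediate in the in vitro KO libraries and highest in vivo under both labels. Lfng, the Notch-modifying glycosyltransferase Lunatic fringe, stood at 11.6 and 10.4 FPKM in the in vitro KO libraries and 1.66 and 2.37 FPKM in the in vitro WT libraries, and at 87.0 and 90.7 FPKM in the in vivo KO libraries and 98.8 and 91.3 FPKM in the in vivo WT libraries. The genes most like Irak3 were Ap2a2 (0.978), Ap4m1 (0.976), Bspry (0.976), Lbr (0.974) and Lig1 (0.969). Lig1, the replicative DNA ligase, stood at 15.5 and 13.9 FPKM in the in vitro KO libraries and 5.49 and 5.51 FPKM in the in vitro WT libraries, and at 23.8 and 16.2 FPKM in the in vivo KO libraries and 15.1 and 10.6 FPKM in the in vivo WT libraries. Between Tlr1 and Irak3 themselves the correlation was 0.689, and between Tlr1 and Irak4 it was 0.979. These 8 points share 4 groups and 2 companies, so the correlations are a description and carry no p.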

How the data were processed

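RNA was prepared with TRIzol, as the labels' protocols state. Every library has 1 deposited table with read counts (whole numbers) and FPKM values that the authors computed for each gene. Among the tools named by the submitters' processing notes are featureCounts, RSEM, Bowtie2, Subread, DESeq2 and Trim Galore 0.4.4, with no roles, and the build named is mm10. The strand setting is not given in the sources used here. The lowest mean count of a listed gene was 5, so rows had been filtered before deposit. Of the symbols, 11994 in vitro and 12534 in vivo matched GENCODE vM21.

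A gene was tested in a system where 2 or more libraries reached an FPKM of 1, which left 9658 in vitro and 10227 in vivo. Counts were fitted with the quasi-likelihood test of edgeR 4.0.16 (R 4.3.3, TMM scaling), each system by itself, two-sided, with a Benjamini-Hochberg adjusted p under 0.05 as the threshold. The SE was obtained from the F statistic, as the size of the log2 fold change divided by its root. The difference between systems was a contrast over all 8 libraries and 9364 genes.

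Alternatives were DESeq2 1.42.0, limma 3.58.1 on log2(FPKM + 1) and log2(FPKM + 0.1), other scalings, other filters, one fit over all libraries, a block for replicate number, and the omission of each library in turn, where a lone library is assumed to vary like the others. The members and lists were chosen with earlier results of these data known. Genes were named as members, as called list genes and the most abundant others of a role, as neighbours within 500 kb, as the 5 most alike genes per member and as cell type markers. Promoter sequences are from RefSeq (GRCm38.p6).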

Additional observations from a re-analysis of the deposited data

Results flagged for a closer look

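The KO effect differed between systems for 6 of the other pathway genes and for 2 neighbours of the members, by edgeR's contrast over all 8 libraries, in vivo minus in vitro. The receptor Tlr12 had log2 fold changes of 0.25 in vivo and 1.68 in vitro, a difference of -1.39 (SE 0.20, adjusted p = 0.00204). Irf7 had 0.00 in vivo and 1.26 in vitro, a difference of -1.23 (SE 0.20, adjusted p = 0.00301 by edgeR). In vitro, Irf7 and Il18r1 passed the filter only through the KO libraries, so their in vitro fold change had to be positive and their difference is drawn from a selected value. Il18r1 had 0.33 in vivo and 1.80 in vitro, a difference of -1.45 (SE 0.32, adjusted p = 0.0128 by edgeR), and it missed the threshold with limma on log2(FPKM + 1) (0.228), without the first in vitro KO library (0.0575) and without the first in vitro WT library (0.105). Ikbke had -0.07 in vivo and 0.72 in vitro, a difference of -0.76 (SE 0.21, adjusted p = 0.0333 by edgeR), which missed the threshold when any of the 4 in vitro libraries, the first in vivo KO library or the second in vivo WT library was left out (0.0602 to 0.143). Sigirr had -0.26 in vivo and 0.51 in vitro, a difference of -0.74 (SE 0.13, adjusted p = 0.00451 by edgeR). Tnip1 had -0.64 in vivo and 0.08 in vitro, a difference of -0.69 (SE 0.14, adjusted p = 0.00835 by edgeR). Klf3, near Tlr1, had -0.01 in vivo and 1.46 in vitro, a difference of -1.44 (SE 0.20, adjusted p = 0.00148 by edgeR). Tmbim4, beside Irak3, had -0.18 in vivo and 0.36 in vitro, a difference of -0.51 (SE 0.14, adjusted p = 0.0294 by edgeR). System and sequencing company cannot be told apart in any of these. Groups of 2 libraries are too small for a test of outlying samples.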

How the results depend on the processing

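In vitro, 3649 genes passed edgeR's threshold, and leaving out 1 library gave 2464 to 3347. In vivo 113 passed; DESeq2 gave 505, limma on log2(FPKM + 1) and log2(FPKM + 0.1) gave 68 and 75, a fit over all 8 libraries 379, and leaving out 1 library 7 (without the second WT library) to 279 (without the second KO library). The in vivo split was 29 higher and 84 lower, but 260 and 245 with DESeq2 and 607 and 471 with the replicate block. For the difference, 1534 passed, and leave-one-out gave 533 to 1816. Pathway genes called in vitro numbered 11, but 18 with no filter and 7 over all 8 libraries (leave-one-out 8 to 12). In vivo the number was 1, but 3 with DESeq2 (leave-one-out 0 to 2), and for the difference it was 6 (4 to 8).

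In vitro log2 fold changes shrank with a pseudocount, to 0.97 (pseudocount 1) and 2.52 (0.1) for Tlr1 and to 2.45 and 4.17 for Irak3. Leave-one-out ranges in vitro were 3.04 to 3.46 for Tlr1, 4.44 to 5.01 for Irak3, 0.10 to 0.12 for Myd88, -0.27 to -0.26 for Irak1 and 0.27 to 0.42 for Irak4. In vivo they were -0.07 to -0.03 for Tlr1, 0.91 to 1.41 for Irak3, -0.0686 to 0.18 for Myd88, -0.0741 to 0.0529 for Irak1 and -0.0154 to 0.0466 for Irak4. The in vivo sign also turned for Irak1 over all 8 libraries (0.0086) and for Irak4 with upper-quartile scaling (-0.0049), both far below their errors. Irak3 in vivo passed the threshold at 1.14 with DESeq2 and 1.15 over all 8 libraries.

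Replicate numbers are shared between labels. Deviations of same-numbered libraries correlated at -0.314 over 9658 genes in vitro and at 0.465 over 10227 genes in vivo, each from 2 pairs of libraries. The main fits had no block for replicate number, and whether same-numbered libraries belong together was not tested. With the replicate block 3159 genes passed in vitro and 1078 in vivo, 7 pathway genes passed in vivo, and Irak3 in vivo stood at 1.15 (adjusted p = 0.000301). The block lost the in vitro calls of Ikbkb (0.149) and Traf3 (0.0972). A crossed pairing, chosen after seeing the data, gave 4997 calls in vitro. With 2 libraries per group and 6 to 12 Tlr1 reads in the in vitro WT libraries, the size of its fold is loosely set. The cause of these changes was not tested.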
